A study of Mus musculus with 20 samples.

Results

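Kidney and liver of wild-type mice were compared gene by gene, with 5 kidney and 5 liver libraries, which are 10 of the 20 libraries of the study. The animals were male C57BL/6 mice labelled wild type, and no treatment, diet or age is given in the labels. The members were chosen by the labels alone: all libraries labelled wild type entered, and kidney and liver with the same title number (1, 3, 4, 5 and 6) were taken as 1 mouse, although no label states this pairing. The remaining 10 libraries come from the same organs of males on the C57BL/6 background with the label Lxrα-/-, which names the loss of a nuclear receptor for oxysterols, and they served to repeat the comparison. Tissue was frozen whole, so each library mixes all cell types of the organ, and fewer cells of a type cannot be told apart from less RNA per cell.

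The kidney filters blood in glomeruli and then recovers glucose, amino acids, phosphate, water and salts along a tubule whose segments each carry their own transporters. The liver makes most proteins of blood plasma, bile acids and urea, stores glycogen and clears drugs. Both organs make glucose and handle organic anions, and the epithelia of both express the transcription factor Hnf4a.

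Of 54532 genes in the count table, 16645 passed the filter on low counts and were tested. CPM are counts scaled for library size and between libraries by TMM, a method that sets the bulk of genes equal, and differences are log2 of kidney over liver, so positive values are higher in kidney. A gene was called at a Benjamini-Hochberg adjusted p under 0.05 in edgeR's quasi-likelihood test with mouse as a block, and all adjusted p values below come from that test. Nothing in the labels says how the animals were housed or sampled, so p values measure the spread between these mice alone. In all, 8600 genes were called (51.7% of those tested), 4616 higher in kidney (27.7%) and 3984 higher in liver (23.9%). A difference of at least 2-fold was called for 3795 genes in kidney (22.8%) and 2857 in liver (17.2%), and one of at least 8-fold for 1645 (9.88%) and 1055 (6.34%). The 5 libraries of 1 tissue lay wholly above the 5 of the other for 7308 genes (43.9%), 3903 with kidney above (23.4%) and 3405 with liver above (20.5%). The median absolute difference over all tested genes was 1.69-fold. Without TMM scaling the median of all genes moved to 0.64, and 7523 genes were then called higher in kidney and 2086 in liver, so that 78.3% of calls were in kidney against 53.7% with it. Small differences are therefore relative to the bulk of genes.

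**Figure D1:**
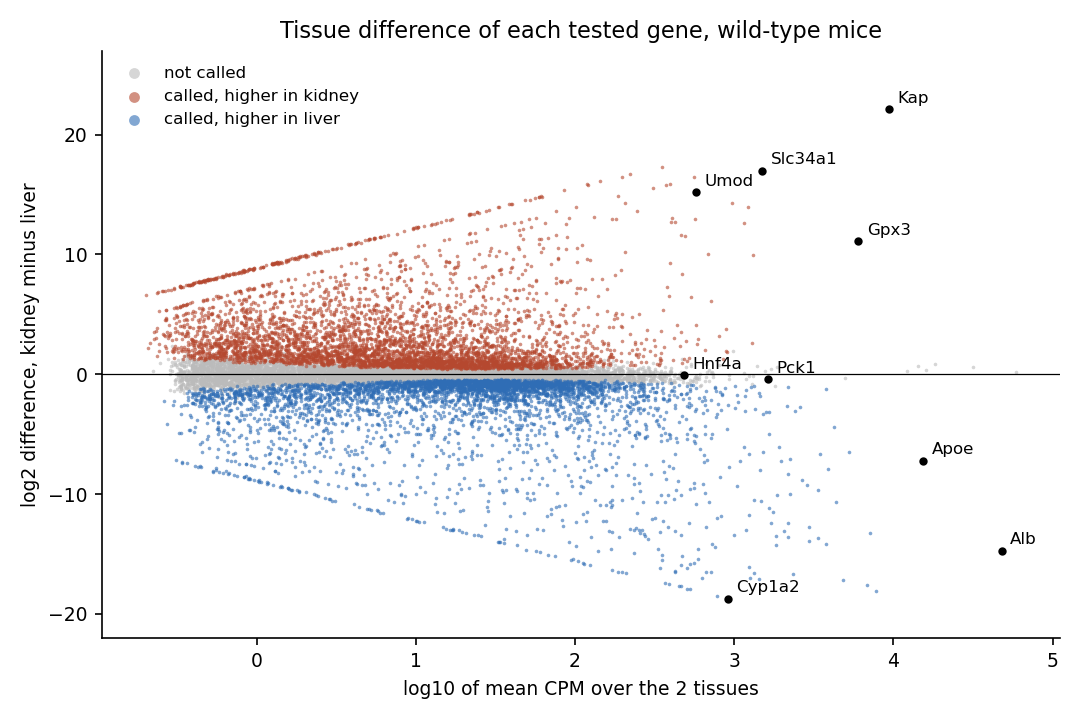
Each point is 1 of 16645 tested genes, with the log10 of its mean CPM over both tissues on the x axis and the log2 difference, kidney minus liver, on the y axis. Red and blue points were called higher in kidney and in liver, grey points were not called, black points are genes named beside them, and the straight outer edges of points are genes with no or few counts in 1 tissue, whose fitted value depends on the prior count of the fit.

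The libraries differed in what fills them. Total counts ran from 23421561 to 32221055 in kidney and from 25502268 to 31790913 in liver. Mitochondrially encoded genes took 7.21% of counts in kidney 1, 50.8% in kidney 3 and 15.8% to 21.1% in the other kidneys, against 6.99% to 12.1% in liver. Kidneys 1 and 3 stand apart in further ways that are given beside the genes they touch, and their part in the results was not tested beyond fits without them: without mice 1 and 3, 4960 genes were called in kidney and 4508 in liver, and 7947 of the calls were shared with the fit of all 5 mice. Correlations of log2 CPM between libraries, given as a description over the same genes, were 0.891 to 0.993 among kidneys, 0.980 to 0.992 among livers and 0.613 to 0.697 between tissues.

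Leaving mitochondrially encoded genes aside, liver RNA was more concentrated in few genes. Albumin alone took 7.68% ± 0.609 (SD, n = 5) of liver counts and 0.000474% ± 0.000211 of kidney counts. A list of 37 plasma carrier and transport proteins took 16.2% ± 0.496 of liver counts and 0.058% ± 0.016 of kidney counts. Leaving out mitochondrially encoded genes, the 10 most abundant genes held 19.2% ± 1.20 of counts in liver and 8.86% ± 0.934 in kidney, and 50% of counts came from 201 ± 19.9 genes in liver and 831 ± 191 in kidney. Over all counts the share of the 10 most abundant genes did not keep this order, at 26.6% ± 15.4 in kidney and 21.9% ± 1.99 in liver. Kidney was higher in 3 of 5 mice, and without mouse 3 the means were 20.1% and 22%. The number of genes holding 50% of all counts kept its order, at 374 in kidney and 144 in liver. It was higher in kidney in 4 of 5 mice, and in kidney 3 alone 8 genes made up 50% of counts. Genes at 1 CPM or more numbered 14439 ± 385 in kidney and 12817 ± 235 in liver. Albumin, the plasma proteins, both measures without mitochondrially encoded genes and this unscaled gene number differed in the same direction in all 5 mice. The two-sided exact sign-flip permutation test gave p = 0.0625 for each, the smallest value that 5 pairs allow.

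Counted per kilobase of gene (FPKM), the most abundant nuclear transcript of kidney was Kap, the androgen-regulated protein of the proximal tubule, at 26699 ± 8622 FPKM. It was followed by Gpx3, the plasma glutathione peroxidase, which the kidney secretes, at 6639 ± 1505 FPKM. In liver Alb stood at 40927 ± 5011 FPKM, Apoa2 at 16197 ± 4029, Apoe at 14249 ± 2232, Fabp1, a fatty acid-binding protein, at 12075 ± 2678, Apoa1 at 11483 ± 3063 and the pheromone carrier Mup3 at 9082 ± 2906. The mitochondrial gene mt-Co1 stood at 30909 ± 7588 FPKM in liver and 45453 ± 41987 FPKM in kidney, with kidney 3 far above the other kidneys.

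At the kidney end of the comparison stood a proximal tubule protein and the carriers of the tubule. Kap read 11890, 14619, 25481, 17499 and 24891 CPM in kidneys 1, 3, 4, 5 and 6 and had no count in any liver, which makes it at least 709876-fold higher in kidney when a floor of 3 counts is taken over the 5 livers (edgeR adjusted p = 4.53e-06). All 5 kidneys were far above all livers. Slc34a1, the sodium-phosphate carrier of the proximal tubule, read 4344, 4021, 2819, 2291 and 1476 CPM in kidney and had 2 counts in all livers together, a ratio of 172668 with a 95% counting interval of 47799 to 1425781. Umod, uromodulin of the thick ascending limb and the main protein of normal urine, read 2101 CPM in kidney 1, 270 in kidney 3 and 938 to 1324 in the others, and 3 counts in liver (ratio 48788, 16694 to 236578). Kidney 3 is thus low and kidney 1 high for a gene whose groups are nonetheless far apart. The other 12 of the 15 protein-coding genes named at this end were Mep1a (a brush border protease), Slc22a12 (urate), Cdh16 (kidney cadherin), Slc12a1, Slc22a6, Fxyd2, Slc7a13, Slc22a8, Klk1 (kallikrein), Slc6a18, Kl (Klotho) and Slc5a2, with mean levels of 373 to 2457 CPM in kidney and at most 19 counts over the 5 livers.

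At the liver end stood secreted proteins and enzymes. Serpina3k read 15912, 15418, 16876, 15344 and 14001 CPM in livers 1, 3, 4, 5 and 6 and had 10 counts in all kidneys, a 281282-fold difference (adjusted p = 2.79e-08). Cps1, the first enzyme of the urea cycle, read 1781, 2767, 2922, 3445 and 3344 CPM in liver and had 3 counts in kidney, all of them in kidney 1 (ratio 176463, counting interval 60382 to 855692). Cyp1a2, a drug-metabolising P450, read 2174, 2223, 1669, 1767 and 1250 CPM in liver and had no kidney count, which makes it at least 108154-fold higher in liver. The livers lay close together for Serpina3k and spread more for Cps1 and Cyp1a2, and no kidney came near them. The others named here were Ahsg, Mat1a, Mup3, Uox (urate oxidase), Cyp3a11, the Mup gene Gm21320, Apof, Orm1, Tat, Mug1, Apoa5 and Cyp2c50. The Mup, Cyp2c, Cyp3a and Serpina3 genes have near-identical copies, and how the authors' counting shared reads among copies is not given in the sources used here, so single members are uncertain. The level of liver genes in kidney varied by gene. Alb in kidney was 0.00383% of its liver level, with a range of 0.00237% to 0.00535% over the 5 mice. Among the abundant liver genes examined, this share ran from 0.000364% for Serpina3k to 5.57% for Cyp2e1. Protein-coding genes at 1 CPM or more in every library of 1 tissue and under 0.1 CPM in every library of the other numbered 193 for kidney, of 12004 at that level, and 131 for liver, of 11395.

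The promoters of 6 genes with large differences (3 of the kidney end, 2 of liver plasma proteins and 1 Hox gene) were picked as examples that hold a marked string, so they do not show how common it is. Each is given as 250 bases before the RefSeq start (GRCm38.p6) on the strand of the gene. Capitals mark GTTAAT or its reverse complement ATTAAC, or TATAAA, the TATA box.
Alb: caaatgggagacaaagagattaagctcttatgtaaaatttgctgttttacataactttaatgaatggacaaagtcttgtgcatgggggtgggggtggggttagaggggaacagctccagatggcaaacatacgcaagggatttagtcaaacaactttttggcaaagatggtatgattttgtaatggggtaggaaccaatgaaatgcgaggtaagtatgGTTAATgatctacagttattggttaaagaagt
Fgb: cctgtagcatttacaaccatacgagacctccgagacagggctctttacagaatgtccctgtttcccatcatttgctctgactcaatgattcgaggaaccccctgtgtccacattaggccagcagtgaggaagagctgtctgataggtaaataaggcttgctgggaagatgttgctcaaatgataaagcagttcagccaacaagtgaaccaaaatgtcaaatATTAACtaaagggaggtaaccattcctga
Umod: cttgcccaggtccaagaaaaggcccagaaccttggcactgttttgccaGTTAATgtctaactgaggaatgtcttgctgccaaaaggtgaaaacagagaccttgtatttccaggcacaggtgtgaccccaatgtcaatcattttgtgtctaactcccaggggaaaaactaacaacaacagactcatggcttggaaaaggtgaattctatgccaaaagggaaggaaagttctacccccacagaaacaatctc
Slc22a6: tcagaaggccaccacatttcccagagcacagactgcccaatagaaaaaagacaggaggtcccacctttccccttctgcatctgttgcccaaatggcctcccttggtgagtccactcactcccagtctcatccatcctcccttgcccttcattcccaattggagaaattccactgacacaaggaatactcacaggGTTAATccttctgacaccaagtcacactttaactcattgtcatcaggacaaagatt
Kap: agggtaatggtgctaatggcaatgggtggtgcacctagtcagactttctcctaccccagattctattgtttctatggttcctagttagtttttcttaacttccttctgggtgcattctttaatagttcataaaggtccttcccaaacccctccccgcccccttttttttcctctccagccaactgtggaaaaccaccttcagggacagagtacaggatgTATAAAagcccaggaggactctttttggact
Hoxa10: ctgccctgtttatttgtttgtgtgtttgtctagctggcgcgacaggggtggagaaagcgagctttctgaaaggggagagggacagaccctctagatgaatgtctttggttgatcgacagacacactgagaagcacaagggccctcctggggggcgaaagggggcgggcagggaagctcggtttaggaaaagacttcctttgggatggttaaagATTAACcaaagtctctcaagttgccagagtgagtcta

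These windows are chr5:90460620-90460869 (plus strand) for Alb, chr3:83049864-83050113 (minus) for Fgb, chr7:119479263-119479512 (minus) for Umod, chr19:8617746-8617995 (plus) for Slc22a6, chr6:133853668-133853917 (minus) for Kap and chr6:52240855-52241104 (minus) for Hoxa10, and all lie upstream of a first exon. The marked letters begin at position -32 from the start in Alb, -29 in Fgb, -202 in Umod, -56 in Slc22a6, -31 in Kap and -37 in Hoxa10. Over protein-coding genes with a RefSeq promoter in the table, searched from 250 bases before to 50 after the start on both strands, GTTAAT was present in at least 1 promoter of 14% of 600 genes called at least 8-fold higher in liver. The share was 9.90% of 1020 genes at least 8-fold higher in kidney, 5.25% of 9447 other tested genes and 8.24% of all 27025 genes with a promoter. TATAAA was present in 21.7%, 13.9%, 8.25% and 15.7% of these sets in the same order. The median number of CG dinucleotides was 6 in the liver set, 14 in the kidney set and 22 in the other tested genes. A match describes letters in a window and does not show that a factor binds there.

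Along the nephron, lists of 12 to 25 markers each were read from the glomerulus to the collecting duct, and most members were higher in kidney, against 27.7% of all tested genes. Of 12 podocyte genes, 11 were higher in kidney and 1 in liver, with a median of 4.34 against 0.00 for all tested genes. Nphs1, nephrin of the filtration slit, read 23.2, 29.0, 19.1, 21.7 and 18.9 CPM in kidneys 1, 3, 4, 5 and 6 and had 1 liver count (10.75, SE 0.45, edgeR adjusted p = 1.58e-08). All kidneys were far above all livers. Podxl, which coats podocytes, read 52.6 CPM in kidney 3 and 145 to 170 in the other kidneys, against 5.26 to 11.8 in liver.

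Proximal tubule transport genes took 24 of 25 members higher in kidney, with a median of 9.68. Their summed level was 8795 to 11996 CPM in kidney and 427 to 574 CPM in liver. Slc5a2, the sodium-glucose carrier SGLT2, read 370, 371, 287, 422 and 413 CPM in kidney and had 1 liver count. Lrp2, megalin, the receptor that takes up filtered protein, read 614 to 1371 CPM in kidney and 0.0501 to 0.399 in liver (11.64, SE 0.50, adjusted p = 1.7e-08). Slc5a12, a lactate carrier, had no liver count and was at least 4427-fold higher in kidney. The exception was the sulphate and oxalate carrier Slc26a1, at 88.9 to 138 CPM in kidney and 166 to 257 in liver (-1.09, SE 0.24, adjusted p = 0.00315), which lost its call without TMM scaling (-0.47, adjusted p = 0.226).

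Enzymes of the proximal tubule were less one-sided: 15 of 22 were higher in kidney, 3 in liver and 4 were not called (median 5.64). Miox, which opens the ring of inositol, read 1581 to 3141 CPM in kidney and 0.145 to 0.924 in liver. Ggt1, gamma-glutamyltransferase of the brush border, was 6586-fold higher in kidney, and Cltrn, collectrin, 6776-fold. The 3 genes higher in liver were Cyp2e1 (-4.39, SE 0.50, adjusted p = 2.68e-05), Haao of tryptophan breakdown (-1.90, SE 0.27, 0.00013) and Fbp1, an enzyme of glucose synthesis (-1.46, SE 0.47, 0.0234). Fbp1 read 89.9 CPM in kidney 3 and 504 to 731 in the other kidneys, against 706 to 1542 in liver, so that the tissues overlapped. Its call was lost without TMM scaling and without mouse 5 or 6.

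In the loop of Henle, 15 of 16 genes were higher in kidney and the summed level was 158-fold higher (2888 to 5277 CPM against 20.5 to 24.1). The median was 10.94, or 9.97 with the 5 genes that had no liver count set to their floor. Slc12a1, the furosemide-sensitive sodium, potassium and chloride carrier, read 840, 1269, 606, 391 and 397 CPM and had no liver count (at least 25500-fold). Bsnd, a chloride channel subunit, read 43.4 to 76.7 CPM in kidney and had no liver count (at least 2163-fold). The factor Irx2 was at least 694-fold higher in kidney. Cldn14, a tight junction gene, went the other way, at 14.5 to 18 CPM in every liver and 6 counts over all kidneys (-8.90, SE 0.51, adjusted p = 1.33e-07).

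All 17 genes of the distal convoluted tubule were higher in kidney (median 7.99). Slc12a3, the thiazide-sensitive sodium chloride carrier, read 1338, 1279, 506, 460 and 487 CPM, with kidneys 1 and 3 above the other kidneys, and 10 counts in liver. Calb1, a calcium-binding protein, read 124 CPM in kidney 3, 229 in kidney 1 and 418 to 503 in the others, the reverse order. The calcium-binding Pvalb was at least 840-fold higher in kidney.

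Principal cells of the collecting duct gave 10 of 16 genes higher in kidney, 4 in liver and 2 not called. Aqp2, the water channel under vasopressin, read 264 CPM in kidney 1, 51.7 in kidney 3 and 74.2 to 118 in the others and had no liver count (at least 5338-fold). Scnn1b and Scnn1g, subunits of the sodium channel ENaC, read 45.4 to 54.7 and 18.8 to 38.4 CPM and had no liver count, and Hsd11b2, which protects the mineralocorticoid receptor from cortisol-like steroids, had 1. The members higher in liver were the keratins Krt18 (-3.95) and Krt8 (-2.01), the sialyltransferase St6gal1 (-3.07) and Nr3c2, the mineralocorticoid receptor itself (-0.72, SE 0.21, adjusted p = 0.0134). Liver cells use the keratins too, and the summed list was 432 to 966 CPM in kidney and 709 to 900 in liver. Nr3c2 lost its call without TMM scaling and without mouse 4 or 5. Intercalated cells, which move acid, were one-sided, with 17 of 17 genes higher in kidney (median 7.61). Atp6v1g3 (at least 2507-fold), Aqp6 (at least 1084-fold) and the factor Foxi1 (at least 792-fold) had no liver count, and the ammonia channel Rhcg and the pump subunit Atp6v1b1 had 1 each.

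Of 11 endocrine genes of the kidney, 10 were higher there, against 27.7% of all tested genes (median 6.91). Ren1, renin, read 92.2, 46.8, 83.0, 118 and 112 CPM in kidney and had 3 liver counts (ratio 3625, interval 1240 to 17580). Vdr, the vitamin D receptor, was 3597-fold higher, at 124 to 194 CPM in kidney. Cyp24a1, which degrades vitamin D, read 74.8 CPM in kidney 1 and 29.2 to 40.5 in the other kidneys, with no liver count. Cyp27b1, which activates vitamin D, read 2.12 to 10.5 CPM in kidney and was 135-fold higher. Agtr1a, the angiotensin receptor, was higher in liver (-1.52, SE 0.19, adjusted p = 4.86e-05).

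**Figure D2:**
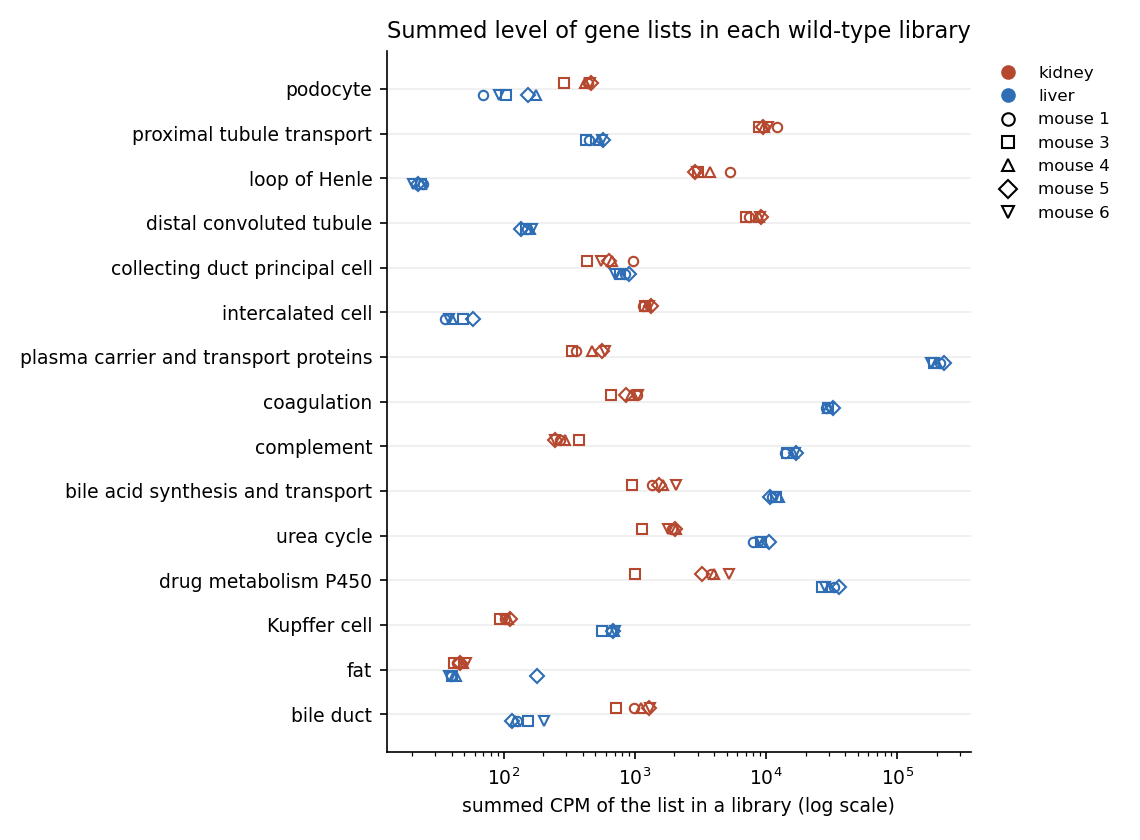
Summed CPM of 15 gene lists on a log axis, with 1 mark per library, red for kidney and blue for liver, and a symbol for each mouse. Nephron lists other than the principal cell list lie apart between tissues, and the fat list of liver 5 lies at 178 CPM while the other livers lie at 38.5 to 43.0.

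Genes of plasma proteins were higher in liver without exception among those tested, 36 of 36, against 23.9% of all tested genes (median -9.80). Alb read 96647, 94787, 89102, 114834 and 83886 CPM in livers 1, 3, 4, 5 and 6 and 3.28, 2.24, 2.78, 6.15 and 4.13 CPM in the kidneys of the same mice (-14.73, SE 0.87, adjusted p = 1.55e-07). The iron hormone gene Hamp, hepcidin, ran from 127 to 1051 CPM among the livers and had no kidney count (at least 24952-fold). The smallest difference of the list was that of Afm, the vitamin E-binding afamin, at 42.6 to 72.2 CPM in kidney and 326 to 481 in liver (-2.71, SE 0.24, 3.97e-06).

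Of 25 coagulation genes, 21 were higher in liver, against 23.9% of all tested genes (median -9.11). F12, factor XII, read 694, 659, 661, 651 and 667 CPM in liver and had 4 kidney counts, and F11 had none (at least 11490-fold). F2, prothrombin, was 7924-fold and Plg, plasminogen, 9686-fold higher in liver. Fgb, a fibrinogen chain, read 5771 to 6109 CPM in liver and 0.518 to 1.59 CPM in kidney. The 4 genes higher in kidney were Plau and Plat, the urokinase and tissue activators of plasminogen, Thbd, thrombomodulin, and F3, tissue factor. Plau read 436, 232, 312, 272 and 328 CPM in kidney and 1.54 to 3.06 in liver (7.11, SE 0.28, adjusted p = 1.14e-08), and Plat was 51.4-fold higher. As background, vessel walls and epithelia make these proteins. F3 overlapped between tissues (10.4 to 16.4 CPM against 5.55 to 11.1) and lost its call without mouse 5 (0.59, with an edgeR adjusted p = 0.0874).

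Complement gave 22 of 24 genes higher in liver, against 23.9% of all tested genes, and none in kidney. At the top were C8b (15023-fold), C9 (12482-fold) and Hc, which encodes C5 (9108-fold). Of 21 apolipoprotein and lipoprotein genes, 20 were higher in liver. Apoc4 had 1 count in all kidneys against 672 to 1122 CPM in liver, and Apon was 7979-fold higher in liver. Lpl, the lipase of capillary walls, was the exception, at 585, 1210, 1533, 602 and 1093 CPM in kidney and 139, 221, 121, 224 and 119 in liver (2.56, SE 0.37, adjusted p = 0.000149).

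Most genes of bile acid synthesis, uptake from blood and export into bile were higher in liver, and 4 carriers were higher in kidney. Cyp7a1, which commits cholesterol to bile acids, read 38.3 to 113 CPM in liver and had no kidney count (at least 5291-fold), and Cyp8b1 was 5323-fold higher in liver. Abcb11, the export pump into bile, read 588 to 759 CPM in liver with 1 kidney count. The uptake carriers Slco1b2 and Slc10a1 were 43391-fold and 1748-fold higher in liver, and the conjugating enzyme Slc27a5 4980-fold. Of 24 genes tested, 17 were higher in liver, 4 in kidney and 3 were not called, against 23.9% and 27.7% of all tested genes called in liver and kidney. Those not called were Cyp7b1 (-0.25) and Amacr (0.13) of synthesis and the receptor Nr1h4 (-0.54). The 4 in kidney were carriers: Slc51a (78.7 ± 37.3 CPM against 0.162 ± 0.089), Slc51b (16.8-fold), Abcc4 (5.94-fold) and Slc10a2, the sodium-bile acid carrier of ileum and tubule (1.5, SE 0.31, adjusted p = 0.00176).

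The urea cycle split by enzyme. Otc had no kidney count and read 643 to 825 CPM in liver (at least 44710-fold), Arg1 was 21140-fold and the activator-producing Nags 1847-fold higher in liver. Ass1, which makes argininosuccinate and serves arginine synthesis in kidney, read 1559, 901, 1651, 1594 and 1250 CPM in kidney and 2764, 3347, 2945, 3145 and 2456 in liver, a 2.03-fold difference (-1.10, SE 0.32, adjusted p = 0.014). Its call was lost without TMM scaling, without mouse 4 or 5 and on the deposited log2 FPKM values. Of 9 genes tested, 8 were higher in liver and 1, Arg2, in kidney. Among 47 genes of amino acid breakdown, 34 were higher in liver, 3 in kidney and 10 were not called. Both lists stand beside 23.9% of all tested genes called in liver and 27.7% in kidney. Tat and Mat1a, named above, differed most (-16.99 each), and Agxt and Hal were 10894-fold and 10349-fold higher in liver. Gls2, the liver-type glutaminase, read 355 to 464 CPM in liver and 0.180 to 0.432 in kidney (-10.52). Those higher in kidney included Dao, the D-amino acid oxidase, with 1 liver count (131 to 284 CPM in kidney), and Acmsd of tryptophan breakdown (2.08).

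The share of the first gene in the summed FPKM of a pair was computed in each library for 15 pairs of enzymes and carriers. Some pairs are forms of 1 enzyme, and others, such as Gatm and Gamt, are successive steps. The pairs were chosen with earlier results of these data known, so their number says nothing of enzymes at large. In most of them the share differed widely between the tissues. Arg2, the mitochondrial arginase, made up 98.6% ± 1.19 of arginase transcripts in kidney and 0.012% ± 0.00855 in liver, where Arg1 made up the rest.

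In glucose use, Hk1, the hexokinase of most tissues, read 107, 38.7, 51.2, 27.7 and 13.8 CPM in kidney and 2.91 to 4.5 in liver (3.38, SE 0.44, adjusted p = 6.87e-05), with kidney 1 highest. Pkm made up 87.6% ± 2.56 of pyruvate kinase in kidney and 3.24% ± 1.32 in liver, the rest being Pklr. Ldhb made up 83.3% ± 4.34 of lactate dehydrogenase in kidney and 0.888% ± 0.188 in liver. The Ldhb shift came from Ldhb itself, at 909, 305, 995, 1110 and 1347 CPM in kidney and 1.75 to 3.57 in liver (8.35, SE 0.47, adjusted p = 1.15e-07), while Ldha read 66.0 to 664 and 534 to 769 CPM (-0.80, SE 0.45, 0.166). Gys1 made up 52.5% ± 12.3 of glycogen synthase in kidney, with a range of 37.0% to 69.4%, and 0.504% ± 0.0988 in liver, and Pygb made up 66.7% ± 4.53 of the Pygb and Pygl pair against 1.85% ± 0.314.

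Enzymes of ketone body use and of creatine synthesis differed as well. Oxct1, which breaks ketone bodies down for energy, read 821, 207, 808, 796 and 1138 CPM in kidney and 3.00 to 7.73 in liver (7.28, SE 0.48, adjusted p = 3.87e-07). Gatm, the first step of creatine synthesis, was 37.8-fold higher in kidney and Gamt, the second, 18.5-fold higher in liver. The steroid enzyme Hsd11b2 made up 71.4% ± 10.9 of its pair with Hsd11b1 in kidney and 0.00376% ± 0.00841 in liver. Fabp3 made up 99.1% ± 0.300 of its pair with Fabp1 in kidney and 0.00107% ± 0.00126 in liver, and Mat2a was the kidney partner of liver Mat1a (0.0149 ± 0.0334 CPM of Mat1a in kidney, 2508 ± 711 in liver). In vitamin D activation, Cyp2r1, which acts before Cyp27b1, was 24.8-fold higher in liver.

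In a few pairs the same gene held most of the sum in both tissues. Pck1, the key enzyme of glucose synthesis, made up 99.3% ± 0.111 of its pair with Pck2 in kidney and 99.7% ± 0.129 in liver, and read 1104 to 1722 CPM in kidney and 1043 to 2447 in liver (-0.41, SE 0.30, adjusted p = 0.271). The mitochondrial ornithine carrier Slc25a15 made up 97.5% ± 3.96 and 99.6% ± 0.718. Pfkl was not called (0.18, SE 0.23, 0.561), and Pfkp made up 30.7% ± 6.38 of that pair in kidney and 5.78% ± 1.20 in liver.

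**Figure D3:**
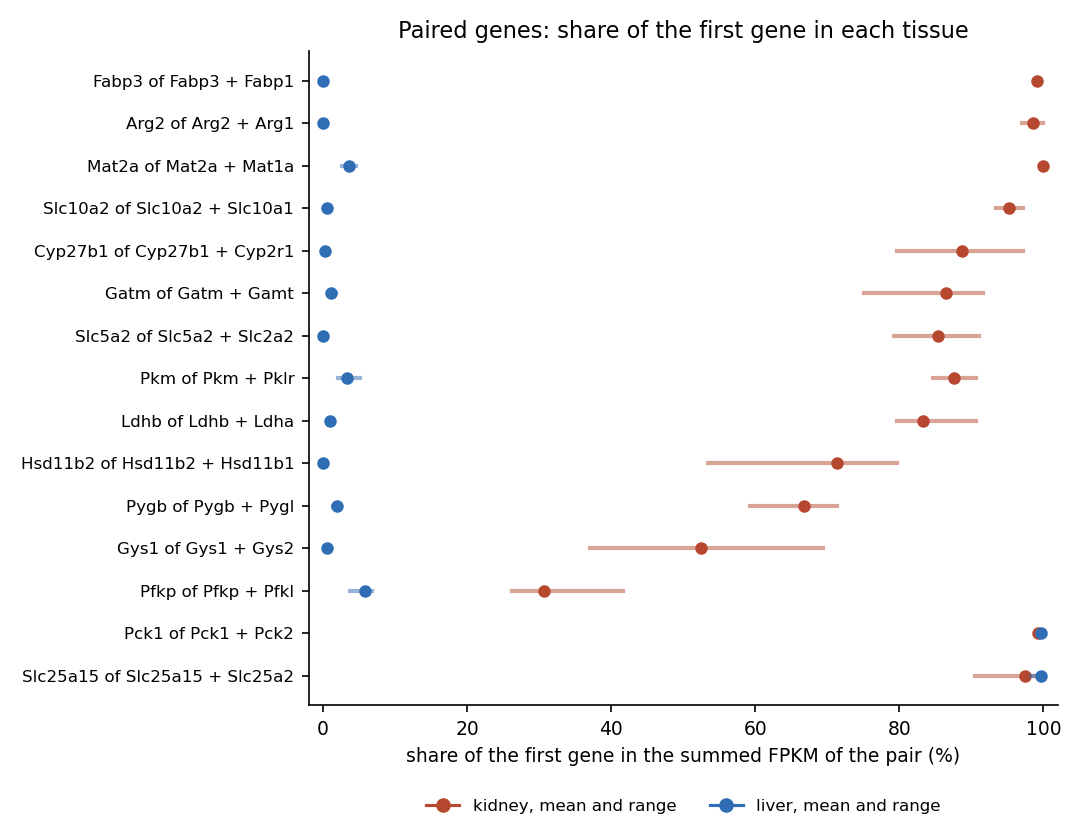
Share of the first gene of each of 15 pairs in the summed FPKM of the pair (x axis, percent), with the mean of 5 mice as a point and the lowest to highest library as a bar, red for kidney and blue for liver. Most pairs lie near opposite ends, whereas Pck1 and Slc25a15 lie near the same end in both tissues.

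Over all 42 genes of glucose metabolism, 16 were higher in kidney, 14 in liver and 12 were not called. Among all tested genes 27.7% were called higher in kidney and 23.9% in liver. The median was -0.27 and turned to 0.38 without TMM scaling and to 0.01 without mice 1 and 3. Besides the pairs above, Fbp2 was higher in kidney (153-fold), and Gckr, a regulator of sugar phosphorylation, in liver (1371-fold). The glucose carrier Slc2a2 stood at 130 ± 52.7 CPM in kidney and 447 ± 87.0 in liver (-1.85, SE 0.25, adjusted p = 8.25e-05).

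Lipid synthesis was a liver trait in 23 of 30 genes, with 2 higher in kidney and 5 not called (median -2.56). Among all tested genes 23.9% were called higher in liver and 27.7% in kidney. Thrsp, which responds to thyroid hormone and carbohydrate, read 324, 974, 1228, 1817 and 921 CPM in liver and 0.916 to 1.66 in kidney. Scd1, stearoyl-CoA desaturase, read 4820, 10575, 6560, 6475 and 5667 CPM in liver and 18.2 to 103 in kidney (-6.67, SE 0.63, adjusted p = 6.36e-06), whereas its relative Scd2 read 21.5 CPM in kidney 3, 68.3 to 82.6 in the other kidneys and 4.52 to 12.4 in liver (2.97, SE 0.42, 0.000142). Fasn (27.7-fold) and Acaca (13.7-fold) were higher in liver. The other gene higher in kidney was Mvd of sterol synthesis (0.94, SE 0.33, 0.0344), whose groups overlapped and whose call was lost without mouse 1, 4, 5 or 6 and on the deposited log2 FPKM values. Of 30 genes of fatty acid oxidation and ketogenesis, 17 were higher in liver, 4 in kidney and 9 were not called. Without TMM scaling 10 were called in liver. Acadm, the medium-chain dehydrogenase, was higher in kidney (1.29, SE 0.29, 0.0032). The omega-hydroxylase genes split, with Cyp4a31 at 187 to 283 CPM in kidney and 6.13 to 23.3 in liver, and Cyp4a12a at 3.68 to 14.5 CPM in kidney and 125 to 480 in liver.

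The receptor Nr1h3 (Lxrα) read 42.1, 39.8, 43.8, 45.3 and 43.1 CPM in kidney and 115, 119, 131, 155 and 108 in liver (-1.54, SE 0.19, adjusted p = 4.22e-05). Its groups did not overlap. Nr1h2 (Lxrβ) read 61.6 to 116 CPM in kidney and 49.3 to 70.4 in liver (0.50, SE 0.20, 0.0555), and was called under 6 of 18 other settings. Of 23 receptors and targets, 15 were higher in liver, 4 in kidney and 4 were not called (median -2.52). Among all tested genes 23.9% were called higher in liver and 27.7% in kidney. Abcg5 and Abcg8, which form the sterol pump into bile, were 882-fold and 624-fold higher in liver, and the sterol exporter Abca1 14.1-fold. Srebf1, the lipid synthesis regulator, read 20.4 to 41.6 CPM in kidney and 211 to 732 in liver. Besides Lpl, the genes higher in kidney were Mylip, which degrades the LDL receptor (2.20-fold), Arl4c (2.21-fold) and Smpdl3a (2.37, SE 0.52, 0.00281). Smpdl3a read 24.1 CPM in kidney 3 and 194 to 407 in the other kidneys, so that kidney 3 fell below every liver (26.3 to 42.0 CPM).

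**Figure D4:**
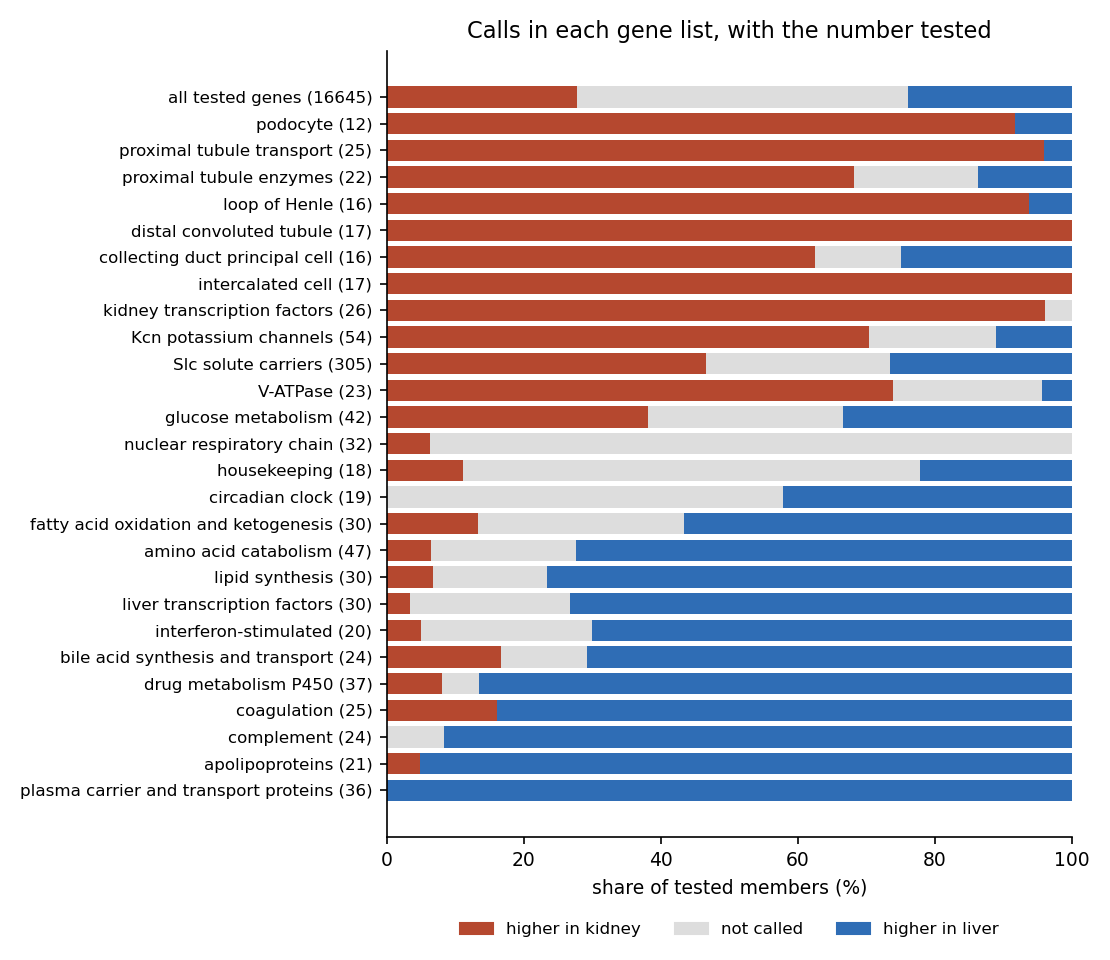
Share of tested members higher in kidney (red), not called (grey) and higher in liver (blue) for 26 gene lists and families, with the number tested in brackets and all tested genes on top. Nephron lists are mostly red, plasma and complement lists blue, and the respiratory chain and housekeeping lists mostly grey.

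Transcription factors known from the development or identity of kidney were higher there in 25 of 26 tested cases, and 1 was not called (median 6.04). The share among all tested genes was 27.7%. Pou3f3, which acts in the loop and distal tubule, read 97.9, 79.2, 82.2, 62.3 and 43.2 CPM in kidney and had 1 liver count. Emx1 (at least 1239-fold), Tfap2b (at least 1006-fold) and Emx2 (at least 657-fold) had no liver count. Pax2, a regulator of nephron formation, read 37.5 and 23.4 CPM in kidneys 1 and 3 and 2.79 to 7.11 in the others, with no liver count, and Pax8 read 34.0 to 121 CPM in kidney and 0.0363 to 0.0931 in liver. Irx2, named above, was also in this list.

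Of 30 factors known from liver, 22 were higher there, 1 in kidney and 7 were not called (median -3.40). Among all tested genes 23.9% were called higher in liver and 27.7% in kidney. Foxa2 had no kidney count and read 24.2 to 62.9 CPM in liver (at least 2212-fold). Onecut2 had 1 kidney count and read 64.4 to 84.1 CPM in liver. Onecut1 ran from 1.40 CPM in liver 1 to 56.0 in liver 3. Creb3l3 (1902-fold), Gata4 (766-fold) and Foxa3 (534-fold) were higher in liver as well, and Esrra, a regulator of mitochondrial genes, was higher in kidney (1.31, SE 0.24, adjusted p = 0.000962). Hnf4a read 491, 392, 454, 506 and 509 CPM in kidney and 521, 427, 523, 507 and 509 in liver (-0.08, SE 0.23, 0.795), and turned to 0.55 without TMM scaling and to 0.08 with upper-quartile scaling, with no call in either.

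Hox genes, which set position along the body axis in the embryo, were kidney genes. Of 40 gene identifiers in the 4 clusters, 30 were tested. Of these, 29 were higher in kidney, against 27.7% of all tested genes, and 1 was not called. Hoxa10, whose promoter is shown above, read 33.4, 44.1, 44.3, 46.6 and 48.9 CPM in kidney and had no liver count (at least 1641-fold). Hoxd8 had the highest level in CPM, at 54.2, 46.1, 86.8, 74.9 and 68.3, with 6 liver counts (1272-fold). Hoxa9 and Hoxd9 read 35.3 to 70.6 and 22.4 to 37.4 CPM in kidney with 1 liver count each, and Hoxb9 (at least 1055-fold) and Hoxd10 (at least 377-fold) had none.

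The difference varied with the paralogue number, which runs from anterior (1) to posterior (13). With a floor of 3 counts for genes without liver counts, the median was 3.27 for the 9 tested genes of paralogues 1 to 4, 6.80 for the 11 of paralogues 5 to 8 and 8.44 for the 10 of paralogues 9 to 11, where most values are lower bounds. Of these 10, 8 had no liver count, and all 10 together had 2 counts in liver and 32040 in kidney, while paralogues 1 to 4 had 535 and 7837. Paralogues 12 and 13 had 5 counts in kidney and 2 in liver over all libraries and were not tested. Across the 30 genes, which share libraries and 4 chromosomal clusters, Pearson's r between paralogue number and difference was 0.684 and Spearman's rho 0.657, as a description. Some members were highest in kidney 3: Hoxb4 read 66.0 CPM there and 7.70 to 25.6 in the other kidneys, against 1.09 to 3.63 in liver, and Hoxa7 read 70.6 against 10.1 to 32.7. Hoxa2 was not called (1.75, SE 0.70, adjusted p = 0.0564), although 8 of 18 other settings called it, with 7.90 CPM in kidney 3 and 0.563 to 1.39 in the others. Hoxa4 (1.85, SE 0.60, 0.0239) lost its call without mouse 1, without mouse 4 and without mice 1 and 3. Annotated spans overlap within the clusters, as for Hoxd3 and Hoxd4, and reads there cannot be assigned with certainty.

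**Figure D5:**
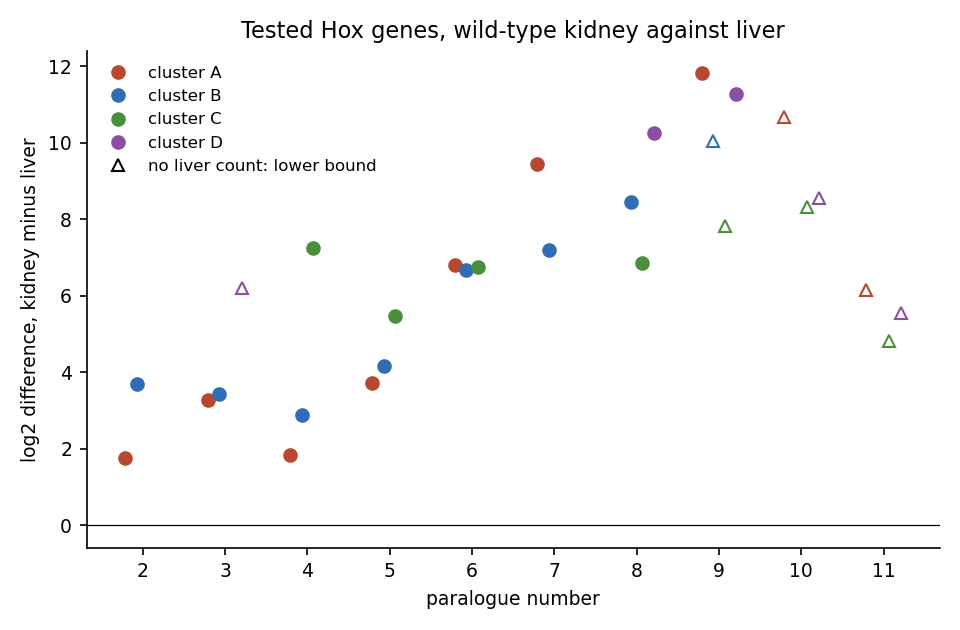
Log2 difference, kidney minus liver, of the 29 tested Hox genes of paralogues 2 to 11 against paralogue number, coloured by cluster. Open triangles are lower bounds for genes with no liver count, whose height depends on the kidney level, and all points lie above 0.

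Counts of gene families are read beside the 27.7% of all tested genes called in kidney and 23.9% in liver. Of 305 tested solute carriers, 142 were higher in kidney, 81 in liver, a share near that of all genes, and 82 were not called (without TMM scaling 172 and 48). Potassium channel genes were higher in kidney in 38 of 54 cases and in liver in 6. Cytochrome P450 genes were higher in liver in 51 of 71 cases and in kidney in 10. In the narrower list of drug-metabolising P450, 32 of 37 were higher in liver (median -7.99), with Cyp2c29, Cyp2c70 and Cyp2c54 at 877 to 1149, 653 to 1123 and 322 to 436 CPM in liver and no kidney count. The 3 higher in kidney were Cyp2j13 (at least 4863-fold), Cyp2j11 (at least 3975-fold) and Cyp4b1 (88.0-fold). Each of these 3 was lowest in kidney 3, where Cyp4b1 read 313 CPM against 1144 to 2170 in the others. All 16 tested Mup genes were higher in liver, and the summed list was at most 0.280 CPM in any kidney and 6537 to 16980 CPM in liver.

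Markers of other cell types were read as a check on what each organ held, beside 27.7% of all tested genes called in kidney and 23.9% in liver. The endothelial, myeloid and lymphocyte counts below are small, and the lymphocyte count in liver is near that share. Of 10 Kupffer cell genes, 9 were higher in liver, where the macrophages of that name reside: Clec4f read 122 to 180 CPM with no kidney count, and Cd5l and Vsig4 had 2 and 1 kidney counts. Of 12 genes of the sinusoidal endothelium, 11 were higher in liver, such as Clec4g (2543-fold) and Oit3 (182-fold). Of 10 stellate cell genes, 8 were higher in liver, led by Colec11 (65.0-fold), and Rgs5, which pericytes share, was higher in kidney (0.83, SE 0.21, adjusted p = 0.0061). General endothelial genes were mixed, with 5 of 12 higher in kidney, 2 in liver and 5 not called: Emcn was 13.6-fold higher in kidney and Vwf 3.17-fold higher in liver. Of 11 macrophage and myeloid genes, 5 were higher in liver and 1, Cx3cr1, in kidney (2.20, SE 0.36, 0.000379), with a median of -0.42 that turned to 0.22 without TMM scaling. Mpeg1 read 9.45 to 15.7 CPM in kidney and 60.2 to 86.9 in liver. Among 10 lymphocyte genes, Cd8a was higher in kidney (1.22, 0.0117, not called without mouse 5), 3 were higher in liver, such as Ms4a1 (-2.09), and 6 were not called. Of 12 smooth muscle and fibroblast genes, 7 were higher in kidney, 2 in liver and 3 were not called (median 1.52). Fbln5 was 13.7-fold higher in kidney and Lum 8.95-fold higher in liver.

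Of 9 tested bile duct markers, 6 were higher in kidney, 2 in liver and 1 was not called (median 2.66). At least 8-fold were 4 of those in kidney and 1 of those in liver. The sum of the list was 719 to 1310 CPM in kidney and 116 to 201 in liver. As background, bile duct markers are shared by other epithelia. Fat markers set liver 5 apart, with a sum of 178 CPM against 38.5 to 43.0 in the other livers and 41.9 to 51.3 in kidney. Adipoq, which only fat cells express strongly, read 13.2 CPM in liver 5 and 0 in the other livers. Without mouse 5, 3972 genes were called higher in kidney and 3300 in liver, and without mouse 4 the numbers were 3996 and 3281. Exocrine pancreas markers summed to 36.2 to 163 CPM in kidney and 15.6 to 23.4 in liver. Of 10 such markers 2 were tested, with 1 called in each direction. Adrenal cortex markers summed to 6.07 to 7.79 CPM in kidney and 2.75 to 4.79 in liver. Both sums were higher in kidney in all 5 mice. Of 6 tested blood markers, 2 were higher in kidney, 1 in liver and 3 were not called, with differences of -4.53 to 6.64. The blood list summed to 135 to 428 CPM in kidney and 214 to 311 in liver. The source of these counts was not tested.

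Among all tested genes 51.7% were called, and lists of genes that every cell uses are given beside that share. Of 32 nuclear genes of the respiratory chain, 30 were not called and 2 were higher in kidney, both tissue-specific subunits of cytochrome oxidase: Cox6a2 (4.34, SE 0.51, adjusted p = 3.19e-05) and Cox7a1 (2.48, SE 0.32, 6.8e-05). Their sum was 4299 CPM in kidney 3 and 10553 to 14295 in the other kidneys, against 8471 to 11696 in liver, and without mice 1 and 3 the list gave 13 calls, all in kidney. Of 13 mitochondrially encoded genes, 1 was called, mt-Co3 (2.01, SE 0.74, 0.0432), which read 91.6 CPM in kidney 1 and 2837 in kidney 3 and lost its call without mouse 3 (1.52, 0.117), 4, 5 or 6 and on the deposited log2 FPKM values. Without mice 1 and 3 the list gave 7 calls in kidney, with a median of 0.80. Of 18 housekeeping genes, 12 were not called. B2m was higher in liver (9.05-fold) and Tfrc and Ywhaz in kidney (3.46-fold and 2.29-fold), and Eef1a1 (-1.24, 0.0319) read 608 CPM in kidney 3 against 2547 to 3608 in the others, with its call lost without TMM scaling, without mouse 1, 4 or 5 and on the deposited log2 FPKM values. The median of this list was -0.23, and 0.40 without TMM scaling.

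The counts of the next lists stand beside 27.7% of all tested genes called in kidney and 23.9% in liver. The vacuolar proton pump was higher in kidney in 17 of 23 genes (median 1.08). Tcirg1, the subunit of osteoclasts and immune cells, was higher in liver (-0.83, SE 0.26, adjusted p = 0.0207). That call was lost without TMM scaling, with upper-quartile scaling and without mouse 1, 4, 5 or 6. For the sodium pump, 9 of 11 genes were higher in kidney. Atp1b1, its beta subunit, read 1242, 314, 981, 819 and 914 CPM in kidney and 51.8 to 83.2 in liver, a 13.5-fold difference, kidney 3 being low but still above all livers. The regulator Fxyd1 was higher in liver (51.7-fold), opposite to the kidney subunit Fxyd2 (20520-fold). Of 20 interferon-stimulated genes, 14 were higher in liver, led by Bst2 (14.6-fold), and Rsad2 was higher in kidney (0.66, SE 0.18, 0.0106). Without TMM scaling 8 were called in liver. Of 19 clock genes, 8 were higher in liver and none in kidney, such as Nfil3 (6.00-fold) and Nr1d1 (3.10-fold), and 11 were not called, with a median of -0.43 that turned to 0.21 without TMM scaling. The time of day of sampling is not given in the labels.

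The same contrast in the 10 libraries labelled Lxrα-/- used no library of the comparison above. Nr1h3 read 78.2 to 124 CPM in these kidneys and 173 to 231 in these livers, on a scale set within that genotype, so its counts do not show the loss that the label names. Of 16202 genes tested there, 10691 were called (66%), 5521 higher in kidney (34.1%) and 5170 in liver (31.9%). Among the 8218 genes called in wild type and tested in both, 8101 had the same direction (98.6%), 7464 had it and were called (90.8%) and 23 were called the other way. Of genes at least 8-fold higher in wild-type kidney, 1501 of 1503 kept the direction, and of those in liver 997 of 997. The 7464 genes are 71.1% of the 10502 called in the labelled knockout libraries and tested in both.

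A test of the difference between the 2 contrasts called 181 of 17606 genes (1.03%), 114 with a larger value of kidney over liver in the labelled knockout mice (0.648%) and 67 with a smaller one (0.381%). Of the genes named above, 10 were among them, given here with the values of the separate fits. Among genes of lipid metabolism, Scd1 stood at -6.67 in wild type and -2.60 in the labelled knockout libraries (adjusted p of the difference 0.00583), Acaca at -3.75 and -1.77 (0.00204), Thrsp at -9.54 and -6.00 (0.0143) and Lpl at 2.56 and 5.51 (0.0189). The omega-hydroxylase Cyp4a12a stood at -4.87 and -1.45 (0.000579), Cyp4a31 at 4.15 and 6.83 (0.011) and Cyp4b1 at 6.15 and 8.42 (0.0221). Gys2, liver glycogen synthase, stood at -4.66 and -2.95 (0.0226), Slc10a1 at -10.80 and -8.95 (0.0215) and Cx3cr1 at 2.20 and -0.58 (0.0107). All but Cx3cr1 kept their direction.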

How the data were processed

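Total RNA of frozen kidney and liver was extracted with Trizol and made into libraries from 3 ug with the NEBNext Ultra kit, per the labels. The submitters' processing notes name HISAT2 2.0.5, StringTie, DESeq2 1.16.1 and build mm10, without role or order, and the use of strand is not given in the sources used here. Whole-number counts were deposited for each gene, and a second table from the authors holds log2 FPKM values, used in 1 alternative.

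The 10 wild-type libraries (depths in the text) were fitted with edgeR 4.0.16 in R 4.3.3: filterByExpr with minimum count 10, TMM, tissue plus mouse, quasi-likelihood test, adjustment of Benjamini and Hochberg. The mouse block follows the rule that pairs libraries by title number. Deviations of same-numbered kidney and liver correlated at -0.142, 0.036, 0.0189, 0.399 and -0.17, so the data do not show the pairing by themselves, and the fit without the block is given with the alternatives. SE is the difference over the root of its F. FPKM and shares use the gene lengths in the count table. Folds use summed scaled counts, and a floor of 3 counts over 5 libraries where 1 tissue has none. Intervals are exact at 95% and, like floors, cover counting error only. Promoters are RefSeq's (GRCm38.p6), and 11067 of 14164 tested protein-coding symbols matched. The fit was checked on simulated counts, where it missed most changes of 2-fold or less. Few genes were changed there, whereas 51.7% were called in the data, so these misses do not measure the power of this comparison. A gene not called may still differ.

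The 42 lists, 10 families and 15 pairs were chosen with earlier results of these data known, and 794 of 800 list symbols are in the table. Some genes stand in several lists. Named genes are the 15 protein-coding genes at each end, ranked by fold with at least the floor in the lower tissue (called, not overlapping, 1 CPM or more), the 10 most abundant per tissue, up to 6 members of a list with the largest differences, members against their list, paired genes, Hox genes and the 2 Lxr genes. A 7th part, 5 nearly equal genes, is not described, and some genes that these rules name are not reported here. Outside these rules, Hnf4a, Podxl, Lrp2, Afm, Ass1, Acaca, Abca1, Pax8 and Adipoq were chosen after their values were seen. Alternatives were other scalings, filters, tools and subsets of mice, fixed as a list with the same knowledge.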

Additional observations from a re-analysis of the deposited data

Results flagged for a closer look

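Among 5 values of 1 tissue, a library was picked out where its gap to the nearest other library was large against the range of the 5 (Dixon's test at the 95% level). Over 420 such sets of named genes, lists and library measures, 29 were picked (6.9%). The nominal rate of 1 in 20 would be 21 sets. That rate is no measure of chance here, because sets share genes and libraries and some genes were named after their values were seen. No explanation was tested.

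Kidney 3 accounted for most. It was high for mt-Co1 (182802 CPM), the summed mitochondrial genes (506940 CPM), Wt1 (14.8), Apoa1 (2.42), Tcirg1 (87.5), Hoxa9 (70.6) and Hoxa2 (7.90), and low for Podxl (52.6), Krt8 (40.5), Scd2 (21.5), Lum (0.259), Arl4c (5.14) and the sums of podocyte genes (289), urea cycle genes (1135) and sodium pump genes (2423). The podocyte sum includes Podxl, while its members Wt1 and Nphs1 were highest in kidney 3. Kidney 1 was high for Cyp24a1 (74.8) and Pfkp (48.4). Kidney 5 was low for the summed myeloid markers (99.2).

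Liver 5 was high for the fat markers (sum 178 CPM), Ahsg (18290), Podxl (11.8), Gls2 (464), Emcn (5.38) and the summed genes of amino acid breakdown (37187). Liver 1 was low for Plg (1596) and Pygl (487). Liver 3 was low for Esrra (44.0) and Hnf4a (427) and high for Fbln5 (10.6).

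The tissue difference depended on the labelled genotype for 10 named genes, by the interaction term of edgeR at an adjusted p under 0.05. In log2 units, the value in labelled knockout minus that in wild type was 2.95 for Lpl, 1.84 for Slc10a1, 1.72 for Gys2, 3.47 for Thrsp, 4.07 for Scd1, 1.99 for Acaca, 3.43 for Cyp4a12a, 2.72 for Cyp4a31, 2.28 for Cyp4b1 and -2.77 for Cx3cr1.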

How the results depend on the processing

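Calls were recomputed under 18 other settings. Of 206 called genes with a fit that are named, 195 kept direction and call in every setting that tested them, 11 lost the call in at least 1 and none turned. Among genes not called, 4 turned: Pfkl (-0.04 without mouse 1, to 0.37 leaving out other mice, and called at 0.81 without TMM scaling, adjusted p = 0.0445), Pck1 (0.22 without TMM scaling, and called at -0.43 by voom, 0.0443), Hnf4a (0.55 without TMM scaling, 0.08 with upper-quartile scaling), and mt-Co1 (-0.25 without mouse 3, to 0.67 leaving out others). Ldha was called by voom alone (-0.63, 0.0345). Of 52 lists and families, 39 kept the side of their median in every setting. Without TMM scaling the kidney and liver calls were 7523 and 2086, those of at least 2-fold 5928 and 1828, and Alb in liver read 32777 FPKM. On the deposited log2 FPKM values, genes called at least 8-fold were 704 in kidney and 615 in liver. Without the replicate block by mouse, 4921 genes were called in kidney and 4033 in liver, 8392 of them shared with the paired fit, and Nr1h2 and Hoxa2 were then called. In the labelled knockout libraries the fit without the block called 5534 and 5277, and the difference by genotype 165 and 100. Leaving out 1 mouse at a time gave 3972 to 4844 calls in kidney and 3281 to 4187 in liver. Without mitochondrially encoded genes albumin took 8.46% of liver counts, and 50% of counts came from 831 genes in kidney and 201 in liver, against 374 and 144 with them. Depth limits genes near the floor of 3 counts, where folds are bounds.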
